A study of Homo sapiens with 4 samples.

Results

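The MAPK feedback phosphatases and the Sprouty and SPRED inhibitors were followed through 10 genes, DUSP1, DUSP2, DUSP4, DUSP5, DUSP6, SPRY1, SPRY2, SPRY4, SPRED1 and SPRED2. Every gene probe that the array design named after 1 of these genes was taken, which gave 12 of 58185 probes, 21 of 60901 spots and 10 of 43311 gene names. The study screened for genes that 5-azacytidine (AZA), a DNA-hypomethylating nucleoside, increased in sensitive cells but not in resistant cells. MDS-L is a human cell line from a myelodysplastic syndrome that grows with IL-3, and MDS-L/CDA is its AZA-resistant derivative, made by transducing CDA, a deaminase of the kind that breaks AZA down. Cells of each line were exposed for 72 h to vehicle, 0.1% DMSO, or to 1 μM AZA, and total RNA was hybridized to 1 one-colour array per condition. The 4 groups were therefore MDS-L with vehicle, MDS-L with AZA, MDS-L/CDA with vehicle and MDS-L/CDA with AZA. All 4 cultures received serum, IL-3 and 2-mercaptoethanol. The treatment field of 2 samples, MDS-L with AZA and MDS-L/CDA with vehicle, contradicted their title, source and description, which were used here. These were the arrays with the lowest and the highest SPRY1 signal. Titles wrote the dose in mM, whereas source names and protocols wrote μM.

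Growth factors and IL-3 activate receptors that signal through the adaptor GRB2, the exchange factors SOS1 and SOS2, RAS, RAF and MEK to the kinase ERK, a mitogen-activated protein kinase (MAPK). Active ERK switches on immediate early genes and also its own inhibitors. Dual-specificity phosphatases (DUSP) remove the activating phosphates from ERK, JNK and p38, whereas Sprouty (SPRY) and SPRED proteins act further up, between the receptor and RAF. Levels of these inhibitors are widely read as a record of how active the pathway has been, but the arrays measured RNA and no phosphorylation.

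Signal is given as a percentage of the 75th percentile of gene probes on the same array, called scaled signal, so that arrays can be compared for 1 probe but probes cannot be compared with each other. A signal well above background is 1 that the scanner software marked so. A gene was called higher or lower when its brightest probe differed at least 2-fold. Each condition had 1 array, so no difference could be tested and none has a replicate check. The only error available was technical, the spread between the 10 spots of each of 300 repeated probes on the same array, which came to an SD of 0.33 on the log2 scale for the dimmest of 5 groups of these probes and 0.15 for the brightest. The corresponding spot SD of a log2 ratio was 0.47 for a probe with a single dim spot. The dimmest group had a median signal of 221 units, and its SD was also used for much dimmer probes. Because the SD rose as signal fell, that SD may be too small for them. The spot SD leaves out differences between cultures.

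Between 32.6 and 36.5% of the probes were well above background on an array, and 0 were saturated. All 7 of 7 haematopoietic and myeloid progenitor markers, including PTPRC, CD34 and CD33, were well above background on the 4 arrays, while 0 of 3 epithelial and 0 of 3 fibroblast markers were on any of them. The single CDA probe was above background on none of the arrays, and whether it matches the transduced sequence was not examined. The summed scaled signal of 6 mast cell, basophil and eosinophil markers was 3038% in MDS-L with vehicle and 22417% with AZA. In MDS-L/CDA it was 1223% with vehicle and 5468% with AZA. Such sums follow the brightest probes, HDC alone reading 1451, 13707, 664 and 2680% in the same order. With AZA, 5 of 5 measured markers were at least 2-fold higher in MDS-L, where 6.73% of all genes were. In MDS-L/CDA 3 of 5 were, where 2.53% of all genes were. Of the 6 markers, 3 to 5 were well above background on an array, and EPX was on none. The 7 erythroid and megakaryocytic markers summed to 1459, 3344, 1822 and 2797% in the same order, with 4 to 6 of them well above background. Of the 3 T cell markers, 2 were well above background in MDS-L with AZA, 1 in MDS-L/CDA with AZA and 0 with vehicle, with sums of 580% and 67.0% under AZA, and CD3E was above it on no array. Of the 3 B cell markers, 2 were well above background on all 4 arrays, MS4A1 was on none, and the sums lay between 1283 and 1645%. The part of these shifts in the values below was not tested, and in bulk RNA fewer cells of a kind cannot be told apart from less RNA per cell.

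The 250 bases before the annotated transcription starts are shown for SPRY1, SPRY2 and DUSP6, the former pair because AZA moved them past 2-fold and DUSP6 as a phosphatase specific for ERK. AZA traps the enzymes that methylate cytosine in CpG. The sequences come from RefSeq on GRCh38.p14 and are written 5′ to 3′ on the strand of the gene, with every CpG in capitals. The arrays did not measure methylation. SPRY1 has 2 listed starts on the plus strand, with windows at chr4:123396545-123396794 and chr4:123398136-123398385. The SPRY2 window shown, 1 of 3, lies at chr13:80341127-80341376 and that of DUSP6 at chr12:89352502-89352751, both on the minus strand.
SPRY1, first start: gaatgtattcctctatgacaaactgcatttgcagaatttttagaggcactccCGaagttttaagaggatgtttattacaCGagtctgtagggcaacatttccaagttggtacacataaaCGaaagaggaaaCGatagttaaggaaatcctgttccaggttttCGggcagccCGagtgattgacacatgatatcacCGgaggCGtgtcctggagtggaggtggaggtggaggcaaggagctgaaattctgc
SPRY1, second start: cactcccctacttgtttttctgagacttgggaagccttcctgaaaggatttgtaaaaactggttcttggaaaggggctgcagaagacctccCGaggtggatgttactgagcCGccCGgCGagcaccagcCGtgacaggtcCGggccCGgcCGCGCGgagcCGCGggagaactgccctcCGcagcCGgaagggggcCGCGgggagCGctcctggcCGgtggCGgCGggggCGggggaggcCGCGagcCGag
SPRY2, first start: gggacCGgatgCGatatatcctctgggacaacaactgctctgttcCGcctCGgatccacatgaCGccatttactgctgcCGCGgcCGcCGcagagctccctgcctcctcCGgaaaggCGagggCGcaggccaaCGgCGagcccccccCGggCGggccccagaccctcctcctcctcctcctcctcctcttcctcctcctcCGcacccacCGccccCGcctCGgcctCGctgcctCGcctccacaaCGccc
DUSP6: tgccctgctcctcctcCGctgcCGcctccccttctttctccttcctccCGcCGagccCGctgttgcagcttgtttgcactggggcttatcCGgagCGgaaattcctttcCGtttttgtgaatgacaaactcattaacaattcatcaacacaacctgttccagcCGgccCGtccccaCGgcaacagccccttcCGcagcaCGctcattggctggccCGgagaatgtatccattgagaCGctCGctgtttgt
The first SPRY1 window held 8 CpGs and the second 24. The SPRY2 window held 23 CpGs and the DUSP6 window 16.

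The promoter table listed 12 starts for 8 of the 10 genes, DUSP4 and DUSP5 being the others. CpG counts ran from 3, at the second SPRED2 start, to 30, at DUSP1 and SPRED1, with a median of 20.5, against a median of 11 and quartiles of 3 and 23 over all 35116 listed promoters. Of the 12 windows, 9 were above the median of all promoters. The binding motif of CREB, TGACGTCA, was present in 1 of the 12 windows, that of DUSP1, and in 1.65% of all promoters, with both strands searched. The letters of the AP-1 motif TGANTCA, the ETS motif CCGGAAGT and a serum response element were in 0 of the 12 windows and in 6.57, 3.42 and 0.0313% of all promoters. The absence of these letters concerns only these windows.

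**Figure D1:**
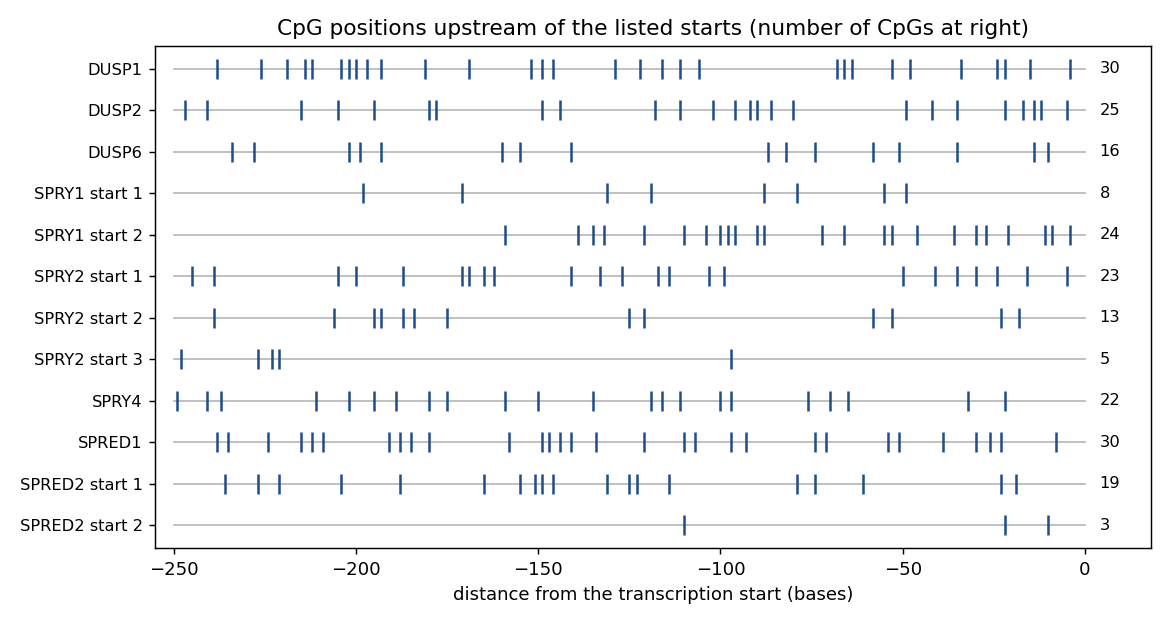
CpG positions in the 250 bases upstream of 12 listed transcription starts of 8 genes, as distance from the start in bases, 1 row per start and 1 tick per CpG. SPRED2 start 2 has 3 CpGs and SPRY2 start 3 has 5, while DUSP1 and SPRED1 have 30 each.

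SPRY1 had the widest range over the 4 arrays. SPRY1 fell 2.41-fold with AZA in MDS-L cells, and its ratio of 0.79 in MDS-L/CDA cells was not past the threshold. SPRY2 rose 2.14-fold with AZA in MDS-L/CDA cells. DUSP6 was 1.67-fold higher with AZA in MDS-L cells and 1.54-fold higher in MDS-L/CDA cells, below the 2-fold threshold but past 2 spot SDs in both lines. DUSP1 was 1.35-fold and 1.23-fold higher with AZA, past 2 spot SDs as pooled over repeated probes. DUSP2, DUSP5 and SPRED2 differed by less than 1 spot SD with AZA in either line. SPRED1 was not detected above background.

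Of the 10 genes, 9 could be compared, and their 9 brightest probes were well above background on all 4 arrays. With AZA in MDS-L cells, 0 of the 9 were called higher and 1 lower, where 6.73% of 17169 genes were called higher and 6.03% lower. In MDS-L/CDA cells, 1 of the 9 was called higher and 0 lower, against 2.53% and 3.07% of 15386 genes. Counts of 0 and 1 among 9 genes lie near these shares. For the MDS-L pair, the 9 genes had a median log2 ratio of 0.0034, and all genes measured on both arrays had one of -0.16. For the MDS-L/CDA pair these medians were 0.26 and 0.012. AZA over vehicle had the same direction in both lines for 8 of 9 genes and the opposite direction for DUSP2. This count depends on the scaling. DUSP5 counted with a log2 ratio of 0.0034 in MDS-L, and with scaling to the median of all gene probes DUSP1, DUSP5 and SPRY2 turned below 0 in MDS-L, at -0.11, -0.54 and -0.10, but not in MDS-L/CDA.

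**Figure D2:**
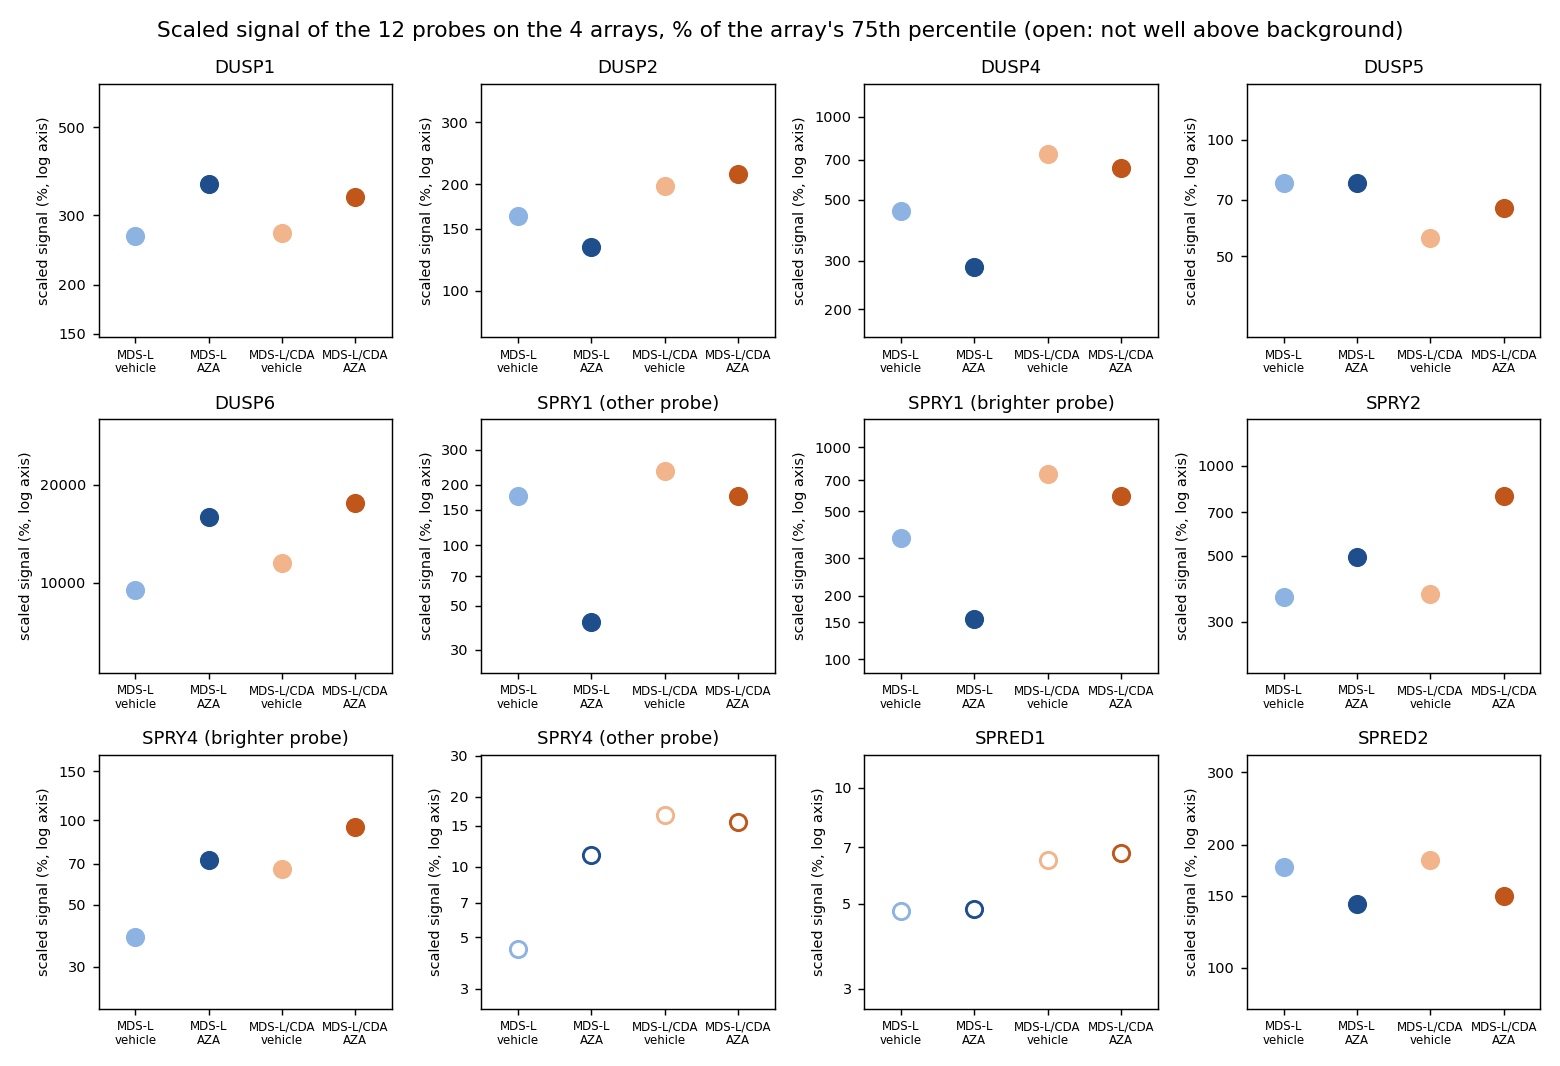
Scaled signal of the 12 probes on the 4 arrays, as a percentage of the 75th percentile of the array, on a log axis whose range differs between panels. Each point is 1 array, with open points not well above background. Both SPRY1 probes are lowest in MDS-L with AZA, at 156% and 41.5%.

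Sprouty proteins are induced by growth factor signals and dampen the path from receptor tyrosine kinases to RAS and RAF. SPRY1 was measured by 2 probes. The scaled signal of the brighter SPRY1 probe, at chr4:124318918-124318977 of hg19, was 375% in MDS-L with vehicle, 156% with AZA, 753% in MDS-L/CDA with vehicle and 591% with AZA. The other SPRY1 probe, at chr4:124324494-124324553, read 177, 41.5, 236 and 176% in the same order. On both probes MDS-L with AZA was the lowest array and MDS-L/CDA with vehicle the highest. With AZA, SPRY1 was 2.41-fold lower in MDS-L by the brighter probe (log2 ratio -1.27, spot SD 0.47) and 4.26-fold lower by the other (-2.09, spot SD 0.47). In MDS-L/CDA the log2 ratios were -0.35 and -0.42, both within 1 spot SD of no difference.

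The difference between the lines in the SPRY1 log2 ratio, MDS-L minus MDS-L/CDA, was -0.92 by the brighter probe, with a spot SD of 0.66, and -1.67 by the other probe, which is past 2 spot SDs. Among the 15104 genes measured on both MDS-L arrays, 2.85% had a lower ratio than SPRY1. Relative to the median gene of this pair of arrays, SPRY1 was 2.16-fold lower. The ratio was below 1 under every alternative processing, with log2 values from -2.09 to -0.87. The call was lost with normexp background correction and when a Z score was required as well. The study's methods require a Z score but give no formula. The Z score used here was the log2 ratio over the SD of ratios among probes of like brightness, which may differ from the study's.

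SPRY2 is the best studied Sprouty protein and binds the ubiquitin ligase CBL. Its probe, at chr13:80910622-80910681, read 365% in MDS-L with vehicle, 494% with AZA, 371% in MDS-L/CDA with vehicle and 794% with AZA. The vehicle arrays of the lines lay close together, and MDS-L/CDA with AZA was the highest of the 4. With AZA, SPRY2 rose 2.14-fold in MDS-L/CDA (log2 1.10, spot SD 0.47) and was 1.35-fold higher in MDS-L (0.44), a direction that turned to -0.10 on the log2 scale with median scaling. Of 14137 genes measured on both MDS-L/CDA arrays, 1.47% had a higher ratio. The call in MDS-L/CDA was lost without scaling and with normexp, where the lowest log2 value was 0.76.

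SPRY4 also restrains receptor signalling to RAS. Its brighter probe, at chr5:141690571-141690630, read 38.2, 71.9, 66.9 and 95.0%. MDS-L with vehicle was the lowest array, and both AZA arrays exceeded their vehicle arrays. The ratio was 1.88 in MDS-L (log2 0.91, spot SD 0.47) and 1.42 in MDS-L/CDA (0.51), neither past 2-fold. Relative to the median gene of the MDS-L pair, SPRY4 was 2.10-fold higher, and it passed 2-fold when the 75th percentile was taken over detected probes or when spike-in probes set the scale. With normexp its log2 ratio in MDS-L was as low as 0.17, and with median scaling it was 0.37. The other SPRY4 probe, at chr5:141694487-141694546, stayed near background throughout.

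SPRED proteins carry a Sprouty-type domain, and SPRED1 brings neurofibromin, which inactivates RAS, to the membrane. The SPRED1 probe, at chr15:38645760-38645819, had signals of 2.52 to 2.65 units, below the lowest signal well above background, which was 9.98 to 11.1 units depending on the array. No ratio is given for it. The SPRED2 probe, at chr2:65538851-65538910, read 176, 143, 184 and 149.6%. Both AZA arrays were below their vehicle arrays, with ratios of 0.81 in MDS-L and 0.82 in MDS-L/CDA, each within 1 spot SD of no difference. Between the lines, the MDS-L/CDA over MDS-L ratio of SPRED2 was 1.04 with vehicle and 1.05 with AZA, also within 1 spot SD.

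DUSP6 resides in the cytoplasm and acts almost only on ERK. Its probe, at chr12:89742144-89742203, read 9516% in MDS-L with vehicle, 15891% with AZA, 11481% in MDS-L/CDA with vehicle and 17640.3% with AZA. Both AZA arrays lay above both vehicle arrays. The ratio was 1.67 in MDS-L (log2 0.74, spot SD 0.22) and 1.54 in MDS-L/CDA (log2 0.62, spot SD 0.22). The difference between the lines was 0.12 on the log2 scale, with a spot SD of 0.31. In MDS-L 7.39% of genes had a higher ratio, and in MDS-L/CDA 6.95%. The log2 ratio stayed above 0 under every alternative, from 0.20 to 0.99 in MDS-L and from 0.47 to 0.65 in MDS-L/CDA.

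DUSP1 is an immediate early gene whose nuclear product acts on p38, JNK and ERK. Its probe, at chr5:172195296-172195355, was printed 10 times on each array, with 1 outlier spot left out on the array of MDS-L with AZA. Spots ran from 199 to 316% with a median of 274% in MDS-L with vehicle. With AZA they ran from 281 to 398% with a median of 358%. In MDS-L/CDA the range was 172 to 321% with a median of 282% with vehicle, and 195 to 465% with a median of 351% with AZA. The spots of the vehicle and AZA arrays overlapped in both lines. The mean ratio was 1.35 in MDS-L (log2 0.44, SE 0.091 between spots) and 1.23 in MDS-L/CDA (log2 0.30, SE 0.16). These errors describe spots of 1 RNA sample and not cultures. With scaling to the median of all gene probes the MDS-L log2 ratio turned to -0.11.

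**Figure D3:**
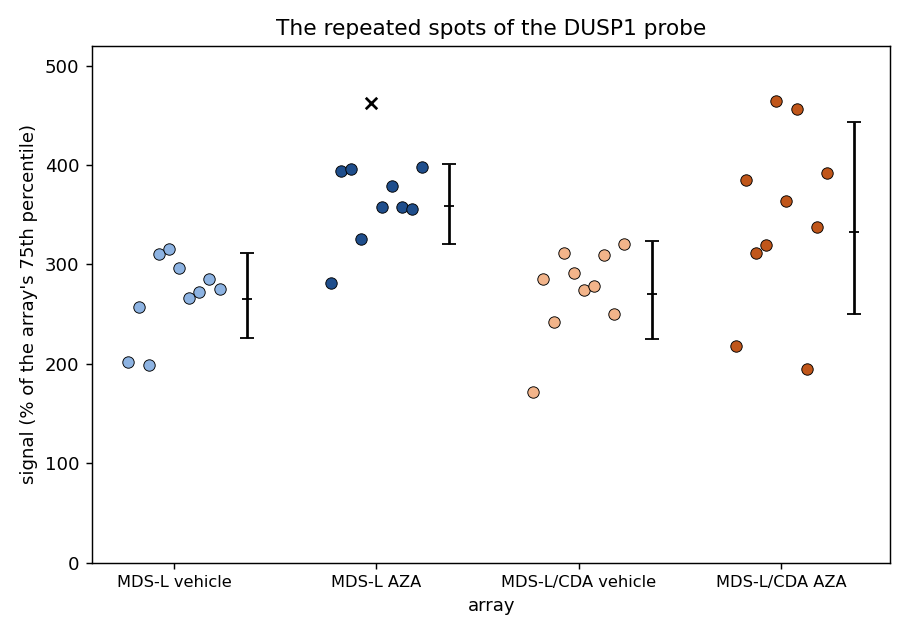
Scaled signal of each DUSP1 spot as a percentage of the 75th percentile of its array, for the 4 arrays. Points are spots of 1 hybridization, the cross is the outlier spot left out, and bars show the mean of log2 values with 1 SD. The medians are 274 and 358% in MDS-L and 282 and 351% in MDS-L/CDA.

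DUSP4 is a nuclear phosphatase for ERK and JNK. Its probe, at chr8:29194382-29194441, read 456, 286, 733 and 653%. MDS-L with AZA was the lowest array, and both MDS-L/CDA arrays were above both MDS-L arrays. The AZA ratio was 0.63 in MDS-L (log2 -0.67, spot SD 0.47) and 0.89 in MDS-L/CDA (log2 -0.17), neither past 2-fold. DUSP2, a nuclear phosphatase found mainly in blood cells, was measured at chr2:96809903-96809962 and read 162, 133, 198 and 215%. Its AZA ratios, 0.82 and 1.09, ran in opposite directions in the lines but were each within 1 spot SD of no difference. DUSP5, a nuclear phosphatase specific for ERK, was measured at chr10:112270900-112270959 and read 77.3, 77.5, 55.7 and 66.7%. Its AZA ratios were 1.00 and 1.20.

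**Figure D4:**
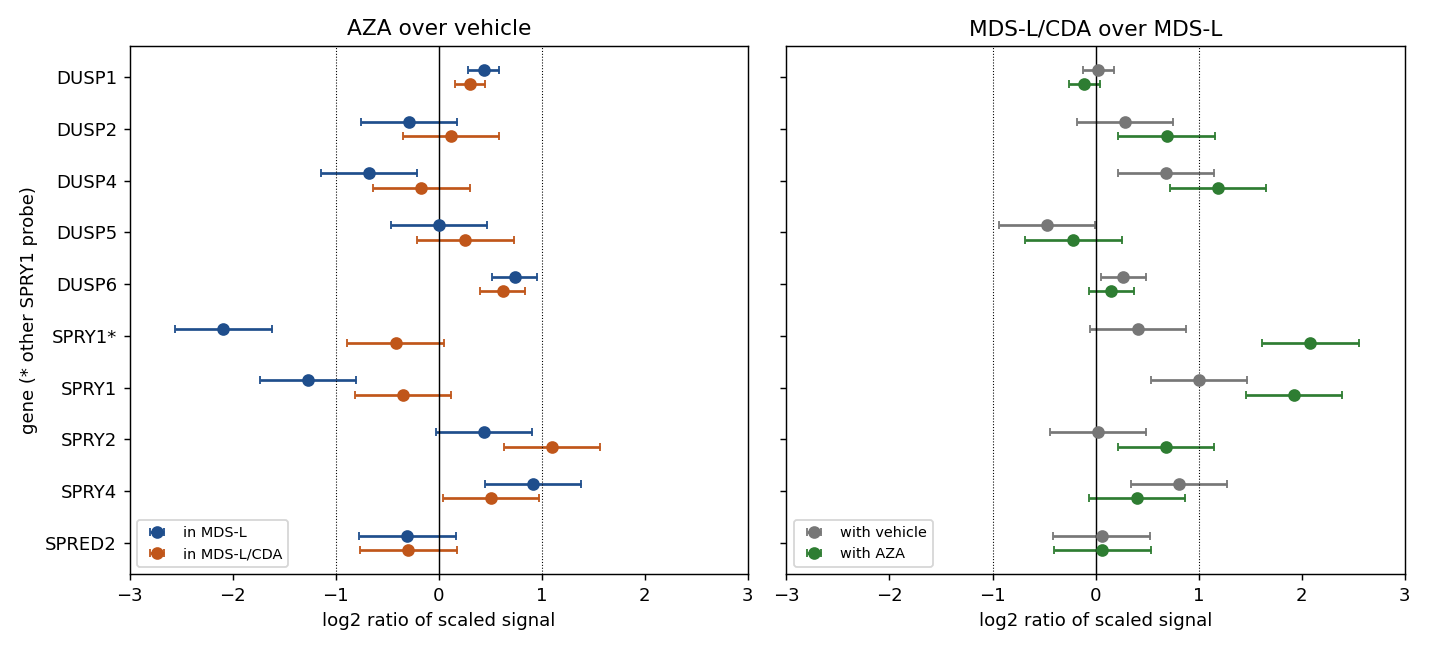
Log2 ratio of scaled signal for AZA over vehicle in each line (left) and for MDS-L/CDA over MDS-L with each treatment (right). Points are ratios of 1 array to another, bars are 1 spot SD, a technical error, and dotted lines mark 2-fold. SPRY1 in MDS-L lies beyond the lower dotted line on both probes, and SPRY2 in MDS-L/CDA lies at 1.10.

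The comparison of MDS-L/CDA with MDS-L cells asked how the resistant line differed. With vehicle, 1 of 9 genes was called higher in MDS-L/CDA and 0 lower, where 2.04% of 15528 genes were called higher and 2.72% lower. The gene was SPRY1, at 2.01-fold by the brighter probe, on the threshold, and at 1.33-fold by the other probe. This call was lost under 8 of 16 alternatives. With AZA, 2 of 9 genes were called higher in MDS-L/CDA and 0 lower, against 5.67% and 5.46% of 16021 genes. They were SPRY1, 3.80-fold by the brighter probe and 4.24-fold by the other, and DUSP4, 2.28-fold. Among 14542 genes, 0.289% had a higher ratio than SPRY1 and 2.70% a higher ratio than DUSP4. The arrays in these comparisons are those of the AZA comparisons, so the low SPRY1 signal in MDS-L with AZA enters both.

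The SPRY1 log2 ratio of MDS-L/CDA to MDS-L with AZA ranged from 1.28 to 2.09 over the alternatives and that of DUSP4 from 0.68 to 1.19. DUSP4 was no longer called without scaling, with scaling to detected probes, with normexp or with the Z score added. With vehicle, DUSP4 was 1.61-fold and SPRY4 1.75-fold higher in MDS-L/CDA, both below the threshold. DUSP1, DUSP6, SPRY2 and SPRED2 with vehicle differed between the lines by ratios of 1.02 to 1.21. DUSP5 was below 1 with vehicle, at 0.72. Without scaling or with median scaling DUSP1, DUSP2, DUSP6, SPRY2 and SPRED2 were below 1 as well.

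Ordering the 4 arrays for each gene gave few neighbours that differed by more than 2 spot SDs. For DUSP1 the step from MDS-L/CDA with vehicle to MDS-L/CDA with AZA, 0.30 on the log2 scale, passed 2 SDs by the spread pooled over repeated probes (0.15) but not by the SE between its own spots (0.16). For DUSP6 it was the step from MDS-L/CDA with vehicle to MDS-L with AZA. For SPRY1 it was the step up from MDS-L with AZA, the lowest array on both probes. For the other genes no neighbouring arrays differed by more than 2 spot SDs.

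Around these inhibitors, 60 genes of the pathway were counted in 6 lists. With AZA in MDS-L cells, 49 of them were measured, 7 were called higher and 0 lower, where 6.73% and 6.03% of all genes were. The median log2 ratio was 0.04 over the 45 genes well above background on both arrays. In MDS-L/CDA cells, 49 were measured, 4 were called higher and 1 lower, where 2.53% and 3.07% of all genes were. The median was 0.10 over the 46 genes well above background on both arrays. The other 8 members of the same families gave 0 calls in either line among 5 measured in MDS-L and 4 in MDS-L/CDA, DUSP3 having ratios of 0.64 and 0.52. The 10 other inhibitors of RAS and receptor signalling gave 0 calls among 8 measured, with medians of -0.45 and -0.16, and the 6 JNK and p38 kinases gave 0.

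In the list of 17 genes from GRB2 to ERK, 2 were higher in MDS-L and 0 lower, and 0 were higher and 1 lower in MDS-L/CDA. With these shares of all genes called, counts this small say nothing particular to the list. The 2 were SOS1, an exchange factor that loads RAS with GTP, at 2.17-fold, and KSR1, a scaffold for RAF and MEK, at 3.11-fold. The KSR1 vehicle signal in MDS-L was not well above background, so that ratio is uncertain. The other probe of SOS1 gave 1.79-fold. SOS2, the relative of SOS1, was 1.52-fold higher in MDS-L and fell 5.13-fold in MDS-L/CDA, with signals of 119, 182, 81.3 and 14.5 units on its single probe. MAPK3, which encodes an ERK kinase, had ratios of 1.14 in MDS-L and 1.09 in MDS-L/CDA. Of 6 receptors, 2 were never well above background. By its brightest probe KIT, the receptor of stem cell factor, rose 47.3-fold in MDS-L and 3.58-fold in MDS-L/CDA. That probe read 26.4, 1261, 14.1 and 46.2 units, so its vehicle signals were low. Another KIT probe was well above background only in MDS-L with AZA, and the remaining probe on no array.

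Of 13 ERK output genes, 9 were measured in MDS-L and 4 were higher, where 6.73% of all genes were. In MDS-L/CDA 10 were measured and 3 were higher, where 2.53% of all genes were. EGR1, an immediate early transcription factor, read 20.1 and 219 signal units in MDS-L and 12.2, not well above background, and 25.4 in MDS-L/CDA. EGR1 rose 10.8-fold in MDS-L and 2.27-fold in MDS-L/CDA, the latter against a vehicle signal not well above background. FOS, a subunit of AP-1, rose 6.21-fold and 2.66-fold, from vehicle signals of 12.4 and 14.6 units that were near background. IER3 rose 4.31-fold and 2.77-fold by its brighter probe. The other IER3 probe gave 6.96-fold in MDS-L and no ratio in MDS-L/CDA. CCND1, which encodes cyclin D1, rose at least 7.38-fold in MDS-L and could not be compared in MDS-L/CDA. ETV4 and ETV5 are ETS factors downstream of ERK. ETV4 gave only a bound, at least 1.29-fold higher in MDS-L/CDA, and ETV5 had ratios of 1.06 and 1.28.

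**Figure D5:**
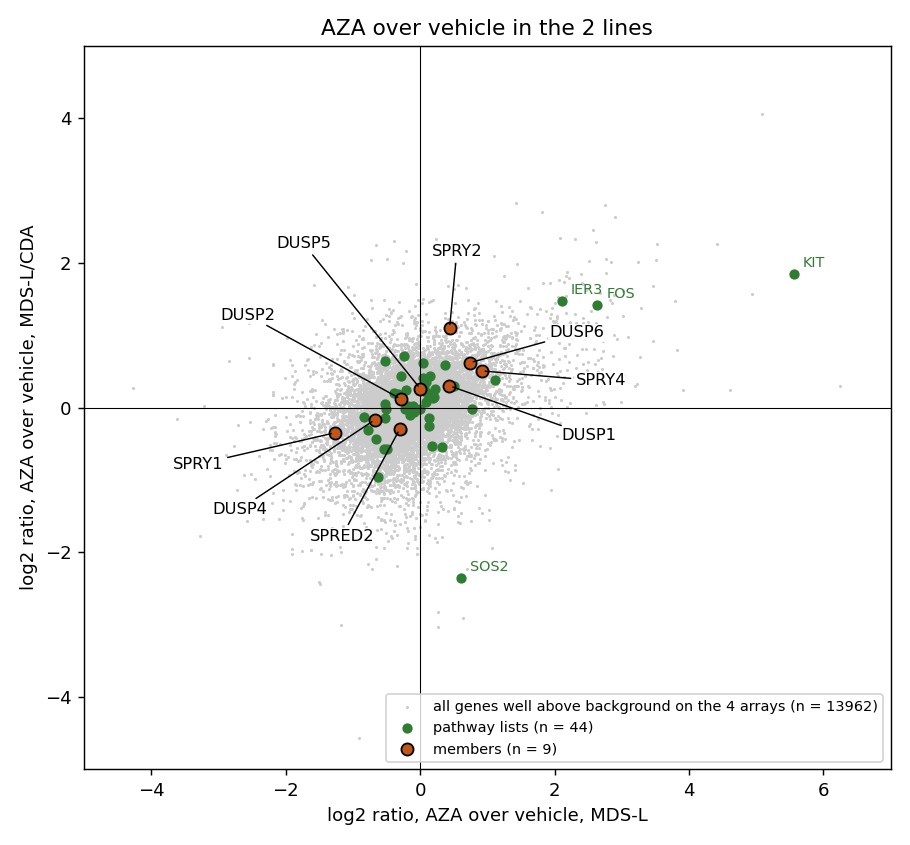
Log2 ratio of AZA over vehicle in MDS-L (x axis) and MDS-L/CDA (y axis) for 13962 genes well above background on the 4 arrays, with 44 pathway genes in green and the 9 measured feedback genes in orange. Each point is 1 gene. SPRY1 lies leftmost of the feedback genes at -1.27 and SPRY2 uppermost at 1.10, while KIT lies far to the right.

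The genes whose 4 scaled signals followed those of SPRY1 most closely were sought among the same 13962 genes. Closeness was the Euclidean distance between log2 profiles centred on their own mean, on which 34 genes lay within 0.5 of SPRY1. The 5 nearest were GNG4, at a distance of 0.18, SPON2 at 0.20, EVI2A at 0.23, SPAG6 at 0.24 and ACN9, now SDHAF3, at 0.29. Their AZA ratios were 0.36, 0.38, 0.34, 0.36 and 0.52 in MDS-L and 0.89, 0.72, 0.75, 0.94 and 0.90 in MDS-L/CDA. A likeness over 4 arrays is a description of those arrays.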

How the data were processed

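RNA of 4 cultures, 1 per condition, was hybridized to 4 one-colour Agilent arrays on 1 slide. Groups followed title, source and description. The authors deposited scanner intensity per spot, background-subtracted by Agilent Feature Extraction 10.7.1.1 and not normalized between arrays, and a value table of processed intensity, whose 51664 matched probes correlated with the scanner log2 signals at 0.999 or more and whose columns had nearly equal distributions. Probe positions are on hg19, and exon or UTR annotation on that build was not used here.

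Control and outlier spots were left out, which removed 16 probes, spots of a probe were averaged on the log2 scale, and each array was centred on its 75th percentile over probes (Python 3.11.15, numpy 2.4.6, pandas 2.3.3; normexp with limma 3.58.1 in R 4.3.3). A gene was read by its brightest probe over the 4 arrays. Where 1 array of a pair was not well above background, its signal was set to the higher of its own and the lowest signal well above background. The result is a bound where the lowest signal was used, and otherwise a ratio to an undetected signal. No test was possible with 1 array per group, and the number of arrays limits the precision. Pathway genes named are those past 2-fold in either line, at most 12, with MAPK3, EGR1, ETV4 and ETV5 (1 further gene of this rule is not reported here), while DUSP3 was added after its values were seen. The 10 genes, the lists and the rules were chosen with earlier results of these data known. The calling rule was tested on simulated data, but only with shifts much larger than 2-fold in bright genes. That test does not bear on calls near 2-fold or on dim probes. Alternatives were 14 set in advance and 2 added after seeing the data, the 75th percentile over all spots and the other SPRY1 probe.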

Additional observations from a re-analysis of the deposited data

Results flagged for a closer look

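DUSP2 and SOS2 had AZA ratios that ran in opposite directions in the lines, and the difference could not be tested with 1 array per condition. The log2 ratio in MDS-L minus that in MDS-L/CDA was -0.41 for DUSP2, with a spot SD of 0.66. For SOS2 it was 2.96, with the lowest signal on the array of MDS-L/CDA with AZA.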

How the results depend on the processing

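No paired analysis was possible because each group had 1 array. None of the feedback genes called at 2-fold changed direction under any of these alternatives, and single pathway genes were not recomputed. With AZA in MDS-L, the feedback genes called higher, 0 at first, were 1 with scaling to detected probes or spike-in probes and 2 at 1.5-fold. The genes called lower, 1 at first, were 2 with median scaling and at 1.5-fold and 0 with normexp or the Z score. In MDS-L/CDA the 1 gene higher became 0 without scaling and with normexp, and 2 at 1.5-fold. For MDS-L/CDA over MDS-L with vehicle, the 1 gene higher became 0 with median, quantile or no scaling, scaling to detected probes, normexp, the authors' table, the mean of probes or the other SPRY1 probe, and 3 at 1.5-fold. With AZA, the 2 genes higher became 1 without scaling, with scaling to detected probes, normexp or the Z score, and 4 at 1.5-fold. Median scaling moved the median log2 ratio of the feedback genes to -0.54 in MDS-L with AZA and -0.25 between the lines with vehicle. Without scaling, this median was -0.10 between the lines with vehicle and -0.10 with AZA.

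Of the pathway genes in MDS-L, 7 higher became 3 with normexp, and 0 lower became 11 with median scaling, 1 without the filter, 5 at 1.5-fold and 2 with any probe, and median scaling gave a median of -0.50. In MDS-L/CDA, 4 higher became 0 with normexp and 9 at 1.5-fold, and 1 lower became 2 with median or no scaling or at 1.5-fold and 0 with normexp. Median scaling rests on probes below background. It moved the median of all genes in MDS-L from -0.16 to -0.70 and the split of genes called higher and lower from 1155 and 1036 to 563 and 4328, against 1554 and 646 with scaling to detected probes and 1390 and 776 with spike-in probes. What caused these and the other changes was not tested. Signals near background left no ratio for SPRED1 and the other SPRY4 probe. Low signals, though well above background, also limit the brighter SPRY4 probe, DUSP5 and, in MDS-L with AZA, the other SPRY1 probe. The spot SD may be too small for these probes.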
